A study of Oryctolagus cuniculus with 134 samples.

Results

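RNA of the aortic valve was compared between rabbits on a cholesterol-enriched diet (CHT) and rabbits on chow (Ctrl). The libraries were chosen by the tissue and treatment in their labels, which gave 13 of the 134 libraries of the series, 6 CHT and 7 Ctrl, with 1 library per rabbit. All animals were male New Zealand White rabbits that entered the protocol at 12 weeks of age and were followed for 16 weeks. CHT rabbits ate chow with 0.3% cholesterol and drank vitamin D2 (ergocalciferol) at 25000 U per day, scaled to body weight, for the first 15 days. Ctrl rabbits ate standard chow and received no vitamin D2, so the parts of cholesterol and vitamin D2 in a difference between CHT and Ctrl cannot be told apart. Another group, Lard (7 aortic valve libraries), received a diet with 5% lard and the same vitamin D2, and is given beside CHT for the genes described. The 7 libraries of IR/CHT rabbits, which received the CHT treatment and 24 Gy of cardiac X-rays, entered the statistical model only. The other 3 groups were not irradiated.

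The aortic valve is a set of thin leaflets covered by endothelium and filled with valve interstitial cells, which make the layered collagen, proteoglycan and elastic matrix. In rabbits, cholesterol feeding is a classical way to provoke fatty lesions of the aorta and the aortic valve, in which monocytes enter the tissue, become macrophages, take up lipoprotein cholesterol and turn into foam cells. A cell loaded with sterol shuts down its own cholesterol synthesis through the SREBP2 pathway and raises efflux genes through the oxysterol receptor LXR. Calcification of the human aortic valve involves osteogenic genes in interstitial cells, which is why bone and matrix genes were included among the lists described here.

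All 6 CHT libraries were on plate 1, while 3 Ctrl libraries (L150, L182, L198) were on plate 1 and 4 (L166, L240, L261, L277) on plate 2, so that plate and treatment are confounded in part. List counts are therefore also given for the plate 1 libraries alone. The deposited gene totals ranged from 13978094 to 20806309 counts in Ctrl and from 14926657 to 39026994 in CHT, with CHT L265 the deepest. No pair of columns was identical, and correlations of log2 expression across genes ranged from 0.834 to 0.982 between Ctrl libraries and from 0.894 to 0.976 between CHT libraries. The first principal component held 53.5% of the variance and set apart Ctrl L150, L166 and L261 and CHT L151, from both groups and both plates, while the second (18.4%) ran from CHT to Ctrl. Whole leaflets were sequenced, so a lower level of a transcript can mean fewer cells of a type or less RNA per cell, and these cannot be told apart. Levels are TMM-scaled CPM, that is, counts per unit of scaled library depth. Log2 fold changes carry ± 1 standard error, and each adjusted p is Benjamini-Hochberg adjusted from edgeR's quasi-likelihood test. A differentially expressed gene (DEG) had an adjusted p under 0.05 and a fold change over 1.5.

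Of 15408 genes tested, 1833 were DEGs between CHT and Ctrl, 11.9% of the genes tested. Among them 1297 were higher on CHT (8.42%) and 536 lower (3.48%). The count of lower DEGs moved with single libraries: it was 1191 without CHT L151, and at most 341 without CHT L169, L186, L228 or L265 or Ctrl L150, L166 or L261, each left out in turn. The split was more even by DESeq2, with 1369 higher and 1303 lower. For 843 genes (5.47%) every CHT library lay above, or every CHT library below, all Ctrl libraries. With the plate 1 libraries alone, 6 CHT against 3 Ctrl, 826 of 15522 genes were DEGs (5.32%), 702 higher and 124 lower. Of these, 775 were also DEGs of the full comparison, or 42.3% of its 1833. With plate as a term in the model, 1125 genes (7.3%) were DEGs, 970 of them higher. From the full comparison to plate 1 alone, lower DEGs went from 536 to 124 and higher DEGs from 1297 to 702. Plate itself was tested at equal treatment over all 27 aortic valve libraries: 0 of 15408 genes (0%) passed the threshold by edgeR, while 1067 had an unadjusted p under 0.05 and the smallest adjusted p was 0.455. The median log2 fold change of all genes tested was -0.016.

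Genes of lipid-loaded macrophages rose on CHT. Of 24 listed genes 18 were tested, and 14 rose and 0 fell, or 77.8% called against 11.9% of all genes. Their median log2 fold change was 1.78, against -0.016 over all genes tested. With plate 1 alone 11 rose and 0 fell. GPNMB (ENSOCUG00000026334), a transmembrane glycoprotein of lipid-filled macrophages, measured 4.04 to 12.3 CPM in Ctrl (median 6.87) and 552.6 to 1991 CPM in CHT (median 852). No CHT library came near the Ctrl range, and the fold was 153.8 (log2 fold change 7.26 ± 0.42, adjusted p = 4.61e-12). SPP1, which encodes osteopontin, a secreted phosphoprotein made by foam cells and by bone cells, measured 44.4 to 106 CPM in Ctrl (median 56.4) and 589 to 1828 CPM in CHT (median 1135). Its groups did not overlap either (log2 fold change 4.15 ± 0.43, adjusted p = 1.07e-07). MMP12, the macrophage elastase, had at most 3 counts in every Ctrl library and 87.8 to 583 CPM in CHT, at least 1452-fold higher when Ctrl is set at 3 counts per library. CHT L265 held the highest MMP12 level, 583 CPM, and the other CHT libraries stayed at or under 262.3.

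Among genes that take in, bind and digest lipid, most of those named here rose by less than GPNMB, SPP1 and MMP12. FABP5, a fatty acid binding protein of macrophages, measured 14 to 32.3 CPM in Ctrl (median 18.3) and 94.9 to 186.1 CPM in CHT (median 139.9) (log2 fold change 2.73 ± 0.28, adjusted p = 8.02e-08). MSR1, the scavenger receptor A that takes up modified LDL, measured 3.58 to 7.8 CPM in Ctrl (median 4.71) and 22.6 to 57.6 CPM in CHT (median 40.4) (log2 fold change 3.003 ± 0.31, adjusted p = 1.03e-07). For both genes the lowest CHT library was above the highest Ctrl library. LIPA, the lysosomal acid lipase that frees cholesterol from its esters, rose by 2.87 ± 0.30 on the log2 scale, with 7.46 to 34.7 CPM in Ctrl and 109 to 238.8 CPM in CHT. LGALS3, the lectin galectin-3, rose by 2.61 ± 0.35, and PLA2G7, the lipoprotein-associated phospholipase, by 1.67 ± 0.24. ATP6V0D2, a macrophage and osteoclast subunit of the vacuolar proton pump, was at most 1.14 CPM in Ctrl and at least 8.65 CPM in CHT (log2 fold change 6.91 ± 0.79, adjusted p = 4.11e-07). LPL, lipoprotein lipase, was not a DEG: it measured 6.79 to 81.8 CPM in Ctrl (median 24.2) and 43.9 to 88.4 CPM in CHT (median 76.3), with overlapping groups (log2 fold change 1.08 ± 0.57, adjusted p = 0.191). LPL passed the threshold without the 2 Ctrl libraries richest in heart muscle transcripts, L240 and L277 (log2 fold change 1.78, adjusted p = 0.0389). LIPA, LGALS3 and ATP6V0D2 were chosen after their values were seen.

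**Figure D1:**
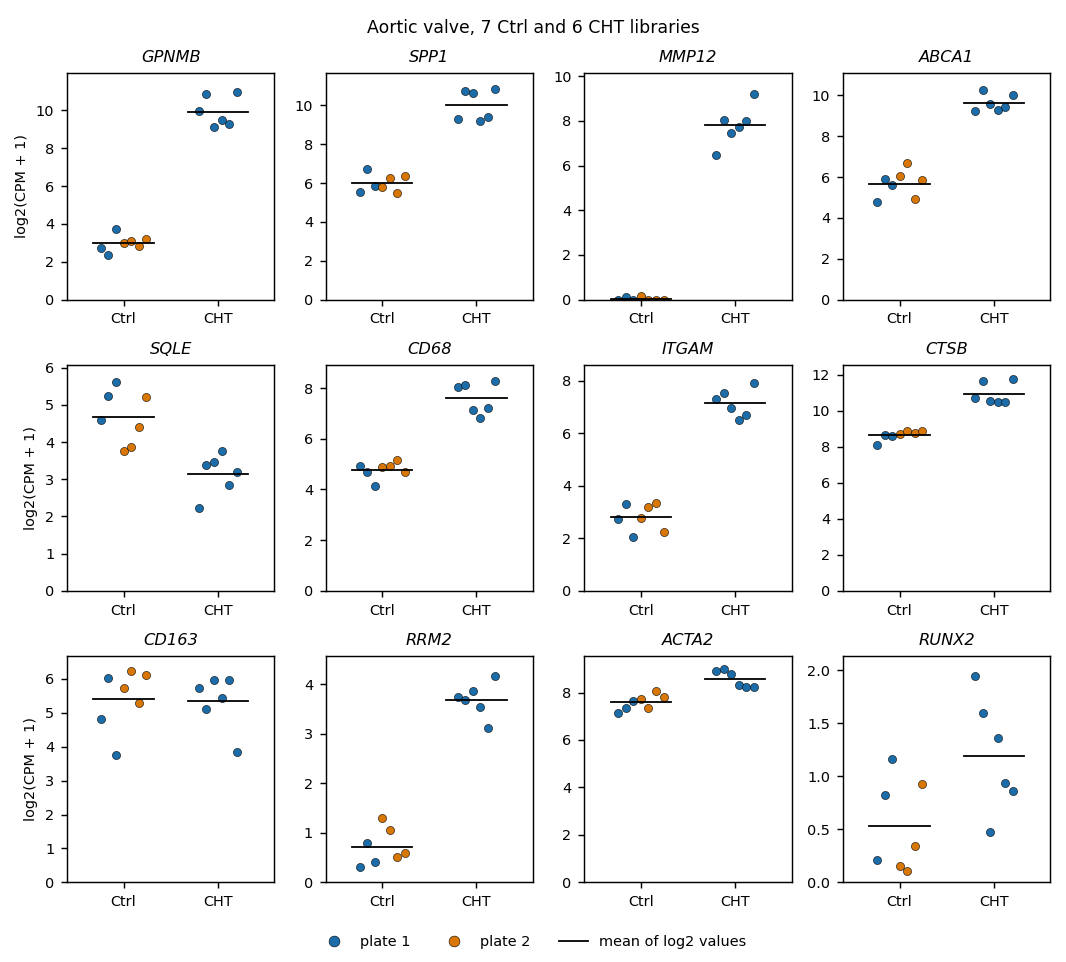
Levels of 12 genes in the 7 Ctrl and 6 CHT aortic valve libraries, as log2(CPM + 1) on a linear axis, each point a library coloured by plate and each line the mean of the log2 values. For GPNMB, SPP1, MMP12, ABCA1, CD68, ITGAM, CTSB, RRM2 and ACTA2 every CHT point lies above every Ctrl point, and for SQLE, CD163 and RUNX2 the groups overlap, narrowly for SQLE.

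Cholesterol synthesis and uptake genes moved the opposite way. Of 19 tested members, 14 fell and 1 rose, or 78.9% called against 11.9% of all genes, with a median of -1.16. With plate 1 alone the counts were 13 and 1 and the median -1.42. SQLE, squalene epoxidase, measured 12.5 to 48.3 CPM in Ctrl (median 23.3) and 3.7 to 12.6 CPM in CHT (median 8.8) (log2 fold change -1.70 ± 0.28, adjusted p = 9.08e-05), and CYP51A1, lanosterol demethylase, 26.3 to 79.3 CPM in Ctrl (median 51.5) and 13.7 to 27.5 CPM in CHT (median 20.1) (log2 fold change -1.34 ± 0.22, adjusted p = 7.27e-05). In both genes the highest CHT library passed the lowest Ctrl library by a small margin. SREBF2, which encodes the transcription factor of the pathway, fell (log2 fold change -2.05 ± 0.56, adjusted p = 0.0139), but missed the threshold without the 4 libraries at the low end of the first principal component (adjusted p = 0.13). INSIG1, the sterol-sensing retention protein and chosen after its values were seen, had a log2 fold change of -1.44 ± 0.26. The 1 member that rose was STARD4, a sterol transport protein that was chosen in the same way, at 1.96 to 7.76 CPM in Ctrl (median 3.87) and 7.68 to 16.3 CPM in CHT (median 11.3) (log2 fold change 1.48 ± 0.27, adjusted p = 0.000291).

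LXR targets rose. Of 15 listed genes 8 were tested, 5 rose and 0 fell, or 62.5% called against 11.9% of all genes. Their median was 1.83, and 3 rose with plate 1 alone. ABCA1 (ENSOCUG00000009279), the transporter that exports cholesterol to apolipoproteins, measured 26.6 to 101 CPM in Ctrl (median 56.3) and 598 to 1242 CPM in CHT (median 727). The lowest CHT library stood above the highest Ctrl library, and the fold was 15 (log2 fold change 3.91 ± 0.29, adjusted p = 5.21e-10). NR1H3, which encodes LXR alpha, measured 3.85 to 11.4 CPM in Ctrl (median 5.89) and 17.4 to 38.5 CPM in CHT (median 27.3) (log2 fold change 1.92 ± 0.28, adjusted p = 1.51e-05), and LPCAT3, a phospholipid remodelling enzyme, 2.81 to 9.17 CPM in Ctrl (median 5.34) and 15.6 to 22.1 CPM in CHT (median 19.9) (log2 fold change 1.78 ± 0.24, adjusted p = 5.21e-06). Neither overlapped between groups. Lard libraries held ABCA1 at 32.2 to 85.5 CPM. ABCA1 on CHT was higher than on Lard by 3.99 ± 0.29 on the log2 scale (adjusted p = 3.49e-10).

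Most macrophage markers rose, while several markers of resident tissue macrophages did not pass the test. Of 21 tested, 12 rose and 0 fell, or 57.1% called against 11.9% of all genes, with a median of 1.13. With plate 1 alone 11 rose. The summed level of the 21 genes ranged from 305 to 820 CPM in Ctrl, with L198 lowest, from 1110 to 1610 CPM in CHT and from 227 to 944 CPM in Lard. CD68, a lysosomal membrane protein of macrophages, measured 16.4 to 34.7 CPM in Ctrl (median 28.7) and 113 to 313 CPM in CHT (median 207) (log2 fold change 2.96 ± 0.24, adjusted p = 1.96e-09). CD14, the co-receptor for endotoxin, rose by 3.33 ± 0.35 on the log2 scale, CD86, a costimulatory molecule, by 2.88 ± 0.30, and TYROBP, the adaptor of many myeloid receptors, by 2.91 ± 0.32. None of these 4 genes overlapped between the groups. CSF1R, the receptor that macrophages need for survival, measured 41.5 to 130.4 CPM in Ctrl (median 86.7) and 149 to 282 CPM in CHT (median 195.7) (log2 fold change 1.13 ± 0.28, adjusted p = 0.00648), and with plate 1 alone the log2 fold change was 1.499 ± 0.45 (adjusted p = 0.0687).

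CD163, the haemoglobin scavenger receptor of resident macrophages, measured 12.4 to 74.4 CPM in Ctrl (median 52.3) and 13.3 to 62.2 CPM in CHT (median 47.3), with overlapping groups (log2 fold change -0.12 ± 0.51, adjusted p = 0.886). With plate 1 alone its log2 fold change was 0.33 ± 0.79 (adjusted p = 0.8294). MRC1, the mannose receptor, measured 57.9 to 309.6 CPM in Ctrl (median 133) and 76.6 to 358 CPM in CHT (median 232.4) (log2 fold change 0.34 ± 0.55, adjusted p = 0.688). The 3 genes of complement C1q gave log2 fold changes of 0.39 ± 0.36 for C1QA, 0.40 ± 0.30 for C1QB and 0.34 ± 0.34 for C1QC, with adjusted p-values of 0.456, 0.359 and 0.498. C1QA was highest in CHT L151, at 85 CPM. MRC1 and the C1q genes were chosen after their values were seen. No test compared these genes with the other macrophage markers, and a missed threshold does not show that their levels were equal.

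Markers of other leukocytes were tested only in part. Of 20 listed neutrophil markers 7 were tested and 0 were DEGs by edgeR or by DESeq2, with 1 at an unadjusted p under 0.05 by edgeR. That was a share of 0%, against 11.9% of all genes. With plate 1 alone 6 were tested, 0 were called by edgeR and 0 had an unadjusted p under 0.05. Their summed level was 2.02 to 6.6 CPM in Ctrl and 2.63 to 8.4 CPM in CHT. CSF3R, the receptor of the neutrophil growth factor, measured 0 to 3.06 CPM in Ctrl (median 0.225) and 0 to 0.346 CPM in CHT (median 0.172) (log2 fold change -2.03 ± 1.17, adjusted p = 0.229), and MPO was too low to be tested. For T cells and NK cells, 4 of 10 tested markers rose and 0 fell, or 40% against 11.9% of all genes, but with plate 1 alone 1 rose. Their summed level was 4.27 to 12.1 CPM in Ctrl and 11.1 to 25.1 CPM in CHT. CD28, a costimulatory receptor of T cells, measured 0 to 0.304 CPM in Ctrl (median 0) and 4.82 to 12.3 CPM in CHT (median 6.44) (log2 fold change 7.09 ± 0.72, adjusted p = 7.39e-08). CD5, a scavenger-receptor family protein of lymphocytes, measured 0 to 0.864 CPM in Ctrl (median 0.168) and 0.367 to 3.6 CPM in CHT (median 1.84) (log2 fold change 3.06 ± 0.71, adjusted p = 0.00363), and with plate 1 alone missed the threshold (adjusted p = 0.0917). The defining genes CD3E, CD4 and CD8A were not analysed here.

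Of the markers of B cells and plasma cells, 3 of 6 rose, or 50% against 11.9% of all genes, and 1 with plate 1 alone. CD22, a sialic acid binding receptor of B cells, measured 0.202 to 2.67 CPM in Ctrl (median 0.914) and 14.5 to 67.4 CPM in CHT (median 31.9) (log2 fold change 4.95 ± 0.54, adjusted p = 1.89e-07), with no overlap, while MS4A1 and CD79B, which are defining genes of B cells, were too low to be tested. JCHAIN, which joins secreted antibodies, measured 0.684 to 2.51 CPM in Ctrl (median 1.07) and 1.61 to 13.2 CPM in CHT (median 3.05) (log2 fold change 1.72 ± 0.47, adjusted p = 0.0144). The highest JCHAIN value, 13.2 CPM, was that of CHT L151, and without that library the log2 fold change was 0.96 (adjusted p = 0.0836). JCHAIN also missed the threshold with plate 1 alone (adjusted p = 0.217), with only the 2 groups compared and without Ctrl L240 and L277.

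The integrins and actin regulators of migrating leukocytes also rose. Of 18 tested adhesion genes 9 rose and 0 fell (8 and 0 with plate 1 alone), or 50% called against 11.9% of all genes. ITGAM (ENSOCUG00000001587), the alpha chain of the integrin Mac-1, measured 3.2 to 9.23 CPM in Ctrl (median 5.77) and 91 to 239.99 CPM in CHT (median 142) (log2 fold change 4.55 ± 0.33, adjusted p = 3.35e-10). ITGAL, the alpha chain of LFA-1, measured 0.561 to 2.28 CPM in Ctrl (median 1.67) and 42.7 to 203 CPM in CHT (median 107) (log2 fold change 6.27 ± 0.47, adjusted p = 6.38e-10). ITGAX, the alpha chain of a complement receptor of macrophages and dendritic cells, measured 0.471 to 3.02 CPM in Ctrl (median 0.865) and 15.7 to 62.7 CPM in CHT (median 30.5) (log2 fold change 4.54 ± 0.48, adjusted p = 1.27e-07). Their shared beta chain ITGB2, chosen after its values were seen, rose by 3.37 ± 0.36. In none of the 4 did the groups overlap. On the endothelial side ICAM1 and SELP were not DEGs, at log2 fold changes of -0.22 ± 0.40 (adjusted p = 0.727) and 0.64 ± 0.54 (adjusted p = 0.413). SELE, which encodes E-selectin, was at most 0.393 CPM in Ctrl and at least 0.476 CPM in CHT (log2 fold change 2.95 ± 0.79, adjusted p = 0.0128). It was chosen after its values were seen and missed the threshold with plate 1 alone (adjusted p = 0.233) and without the 4 libraries at the low end of the first component.

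Of the 20 tested genes of the phagocyte oxidase and of leukocyte actin control, 17 rose and 0 fell, 11 and 0 with plate 1 alone, at a median of 1.78. In the full comparison 85% were called, against 11.9% of all genes. HCLS1, an actin regulator of blood cells, measured 9.66 to 20.8 CPM in Ctrl (median 17.5) and 78.8 to 165 CPM in CHT (median 119) (log2 fold change 2.89 ± 0.25, adjusted p = 5.79e-09). NCKAP1L, a subunit of the WAVE complex in leukocytes, rose by 2.82 ± 0.25 and ARHGAP25, a Rac GTPase activator of phagocytes, by 2.58 ± 0.29. RAC2, the leukocyte Rac GTPase, measured 0.684 to 3.77 CPM in Ctrl (median 1.12) and 4.35 to 65.2 CPM in CHT (median 14.6) (log2 fold change 3.85 ± 0.54, adjusted p = 7.76e-06). CYBB, the catalytic subunit of the oxidase, measured 4.32 to 14.5 CPM in Ctrl (median 8.83) and 25.7 to 54.2 CPM in CHT (median 32.6) (log2 fold change 1.86 ± 0.40, adjusted p = 0.00183).

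Lysosomal enzymes rose broadly. Of 26 tested, 20 rose and 0 fell, or 76.9% called against 11.9% of all genes, at a median of 1.27. With plate 1 alone 14 rose. CTSS, the cathepsin that trims the class II invariant chain, measured 5.89 to 13.2 CPM in Ctrl (median 10.8) and 98.3 to 281 CPM in CHT (median 146) (log2 fold change 4.13 ± 0.37, adjusted p = 8.32e-09). CTSB, a broad lysosomal cysteine protease chosen after its values were seen, measured 269.03 to 469.8 CPM in Ctrl (median 418) and 1441 to 3523 CPM in CHT (median 1607) (log2 fold change 2.39 ± 0.24, adjusted p = 4.9e-08). CTSK, the collagen-cleaving cathepsin of osteoclasts, measured 62.1 to 189.1 CPM in Ctrl (median 129) and 337 to 1149 CPM in CHT (median 614) (log2 fold change 2.47 ± 0.31, adjusted p = 1.47e-06). GLB1, the lysosomal beta-galactosidase, rose by 2.44 ± 0.20, and GUSB, beta-glucuronidase, by 2.74 ± 0.25. These 5 enzymes did not overlap between the groups. LAMP1, a protein of the lysosomal membrane, measured 65.7 to 153.2 CPM in Ctrl (median 104) and 83.9 to 265.1 CPM in CHT (median 143) and was not a DEG (log2 fold change 0.54 ± 0.28, adjusted p = 0.183).

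Class II antigen presentation rose in 5 of 8 tested genes and fell in 0, or 62.5% called against 11.9% of all genes. The median was 1.85, and with plate 1 alone the counts were 4 and 0. HLA-DRA, the alpha chain of the main presenting molecule, measured 7.62 to 26.1 CPM in Ctrl (median 14.5) and 86.8 to 215 CPM in CHT (median 177.6) (log2 fold change 3.35 ± 0.35, adjusted p = 9.41e-08). CD74, the invariant chain, measured 51.5 to 144 CPM in Ctrl (median 111) and 396 to 907 CPM in CHT (median 599.6) (log2 fold change 2.54 ± 0.30, adjusted p = 5.35e-07), and HLA-DMA, which loads peptides, rose by 2.84 ± 0.26. All CHT values of these 3 genes lay above all Ctrl values. CIITA, the transcriptional master regulator of the class II genes, measured 0.857 to 10.4 CPM in Ctrl (median 2.69) and 4.01 to 16.6 CPM in CHT (median 7.36), with overlapping groups (log2 fold change 1.16 ± 0.45, adjusted p = 0.0843). CIITA passed the threshold without Ctrl L150, the Ctrl library with the highest level (adjusted p = 0.0129).

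Among chemokines and their receptors 6 of 19 tested rose and 0 fell (3 and 0 with plate 1 alone, and 3 and 0 without the 4 libraries at the low end of the first component), or 31.6% called against 11.9% of all genes. CCL2, the main attractant of monocytes, measured 1.26 to 2.81 CPM in Ctrl (median 1.68) and 4.66 to 11.4 CPM in CHT (median 8.8) (log2 fold change 2.11 ± 0.39, adjusted p = 0.000386), with no overlap. CCR1, a receptor of inflammatory chemokines, was at most 0.38 CPM in Ctrl and 1.64 to 7.57 CPM in CHT (log2 fold change 4.57 ± 0.67, adjusted p = 1.7e-05). CCL19, a lymphoid chemokine, rose by 2.95 ± 0.60. CX3CR1, the fractalkine receptor of monocytes, measured 1.46 to 7.55 CPM in Ctrl (median 3.46) and 9.13 to 16.6 CPM in CHT (median 13.9) (log2 fold change 1.80 ± 0.41, adjusted p = 0.00308), and missed the threshold with plate 1 alone (adjusted p = 0.142) and without the 4 libraries at the low end of the first component. CXCR4, a receptor for a stromal chemokine, measured 4.71 to 38.3 CPM in Ctrl (median 10.4) and 21.2 to 47.6 CPM in CHT (median 37.3) (log2 fold change 1.28 ± 0.36, adjusted p = 0.0159). The highest Ctrl value of CXCR4 was that of L198 on plate 1, and the gene missed the threshold with plate as a term (adjusted p = 0.0893), with plate 1 alone (adjusted p = 0.29), with only the 2 groups compared and without the 4 libraries at the low end of the first component.

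Of 35 tested cytokines, growth factors and their receptors 9 rose and 2 fell, or 31.4% called against 11.9% of all genes, and 3 and 1 with plate 1 alone. IL1RN, the antagonist of the interleukin-1 receptor, measured 0.157 to 1.68 CPM in Ctrl (median 0.636) and 6.58 to 14.3 CPM in CHT (median 10.6) (log2 fold change 3.79 ± 0.45, adjusted p = 6.64e-07). IL7R, a receptor chain of lymphocytes and some macrophages, rose by 3.23 ± 0.43 and IL10RB, a chain of the interleukin-10 receptor, by 1.57 ± 0.19. The groups did not overlap for any of the 3. TNF was low throughout, at 0 to 0.55 CPM in Ctrl (median 0.101) and 0.733 to 1.78 CPM in CHT (median 1.03) (log2 fold change 2.93 ± 0.77, adjusted p = 0.0111), and had an adjusted p of 0.164 with plate 1 alone. IL1B was not a DEG, at 0.0577 to 0.353 CPM in Ctrl (median 0.212) and 0.238 to 0.692 CPM in CHT (median 0.439) (log2 fold change 1.04 ± 0.71, adjusted p = 0.31).

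Innate receptors and their signal carriers gave 13 higher and 0 lower DEGs of 25 tested, or 52% against 11.9% of all genes. With plate 1 alone the counts were 11 and 0, and the median of the full comparison was 1.58. SYK, the kinase behind myeloid immunoreceptors, measured 4.83 to 11.7 CPM in Ctrl (median 10.2) and 35.3 to 94.5 CPM in CHT (median 52.7) (log2 fold change 2.68 ± 0.29, adjusted p = 1.44e-07). LY86, a partner of a Toll-like receptor homologue, measured 0.505 to 1.26 CPM in Ctrl (median 0.756) and 7.7 to 20.1 CPM in CHT (median 14.4) (log2 fold change 4.02 ± 0.41, adjusted p = 7.39e-08). TLR4, the endotoxin receptor, rose by 2.02 ± 0.37 and TLR2, the lipopeptide receptor, by 1.58 ± 0.25. None of the 4 overlapped between groups. NLRP3, the sensor of the inflammasome, measured 10.8 to 28.9 CPM in Ctrl (median 17.9) and 22.4 to 33.8 CPM in CHT (median 28.7) and was not a DEG (log2 fold change 0.53 ± 0.30, adjusted p = 0.227).

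Interferon-responsive genes rose in 9 of 21 tested and fell in 0, or 42.9% called against 11.9% of all genes, but with plate 1 alone 3 rose. OASL, a member of the antiviral oligoadenylate synthetase family, measured 0 to 0.477 CPM in Ctrl (median 0.0962) and 1.9 to 11.3 CPM in CHT (median 5.45) (log2 fold change 5.36 ± 0.60, adjusted p = 3.35e-07), and PSMB8, an immunoproteasome subunit, 2.64 to 6.55 CPM in Ctrl (median 4.51) and 11.4 to 20.1 CPM in CHT (median 16.3) (log2 fold change 1.88 ± 0.27, adjusted p = 1.23e-05). Neither overlapped. CXCL10, an interferon-induced chemokine, measured 0.0577 to 1.35 CPM in Ctrl (median 0.228) and 0.555 to 4.61 CPM in CHT (median 1.97) (log2 fold change 2.05 ± 0.61, adjusted p = 0.024) and missed the threshold without Ctrl L150, L166 or L261 or CHT L228 (adjusted p = 0.0502 to 0.0963). CXCL10 also missed it with plate as a term (adjusted p = 0.119), with plate 1 alone (adjusted p = 0.212), with only the 2 groups compared and without the 4 libraries at the low end of the first component. For complement 7 of 16 genes rose and 0 fell (4 and 0 with plate 1 alone; 43.8% called), led beside the integrins by the anaphylatoxin receptors C5AR1, at 0.898 to 4.67 CPM in Ctrl (median 3.17) and 10.1 to 29.1 CPM in CHT (median 16.9) (log2 fold change 2.63 ± 0.32, adjusted p = 1.18e-06), and C3AR1, at 0.337 to 3.65 CPM in Ctrl (median 1.75) and 7.6 to 16.5 CPM in CHT (median 9.62) (log2 fold change 2.62 ± 0.45, adjusted p = 0.000154). C3 was not analysed here.

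**Figure D2:**
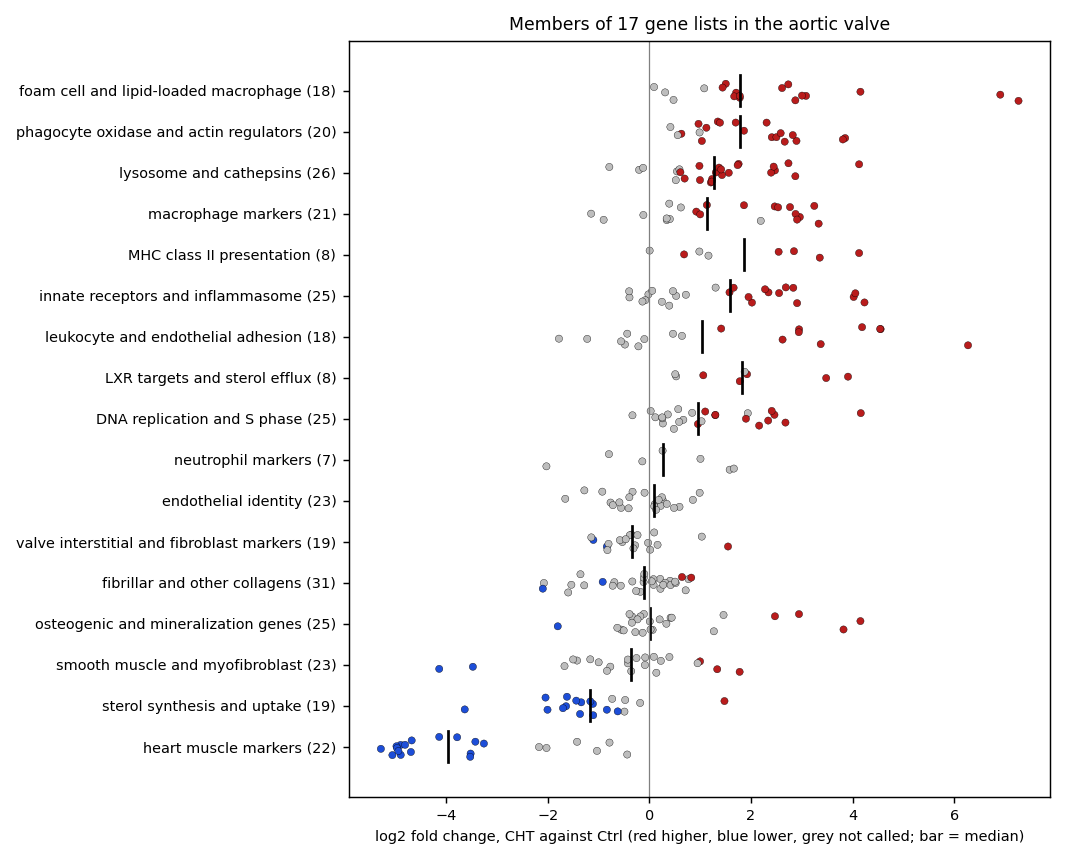
Log2 fold change on CHT against Ctrl of each tested member of selected gene lists, 1 point per gene, with the number tested in brackets and the median as a bar. Red points are higher DEGs, blue points lower DEGs and grey points were not called; MMP12 is not a member of these lists. The heart muscle and sterol synthesis lists have their medians on the lower side (-3.96 and -1.16), and the endothelial and neutrophil lists hold 0 DEGs by edgeR.

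Genes of DNA replication rose in 11 of 25 tested and fell in 0 (8 and 0 with plate 1 alone), and genes of cell cycle control in 11 of 22 and 0 (6 and 0). With all libraries these were 44% and 50% called, against 11.9% of all genes. RRM2, the ribonucleotide reductase subunit made in S phase, measured 0.236 to 1.44 CPM in Ctrl (median 0.504) and 7.66 to 16.9 CPM in CHT (median 12.1), a 17.9-fold difference without overlap (log2 fold change 4.16 ± 0.45, adjusted p = 1.83e-07). MCM4, part of the replicative helicase, measured 1.49 to 4.41 CPM in Ctrl (median 3.41) and 9.78 to 20.2 CPM in CHT (median 16.4) (log2 fold change 2.34 ± 0.27, adjusted p = 3.85e-07), and TIMELESS, which protects replication forks, 8.51 to 12.5 CPM in Ctrl (median 11.3) and 20.1 to 31.4 CPM in CHT (median 26.1) (log2 fold change 1.298 ± 0.15, adjusted p = 5.72e-07). CCNB2, a mitotic cyclin, rose by 3.71 ± 0.51, CCNE2, a cyclin of S phase entry, by 2.94 ± 0.48, and CDKN3, a phosphatase of cyclin-dependent kinases, by 2.12 ± 0.35. TOP2A, the topoisomerase of dividing cells, measured 0.864 to 7.21 CPM in Ctrl (median 3.87) and 22.9 to 38.8 CPM in CHT (median 31.1) (log2 fold change 3.03 ± 0.41, adjusted p = 5.08e-06), and ANLN, anillin of the cleavage furrow, 0.786 to 3.61 CPM in Ctrl (median 2.19) and 13.9 to 33.7 CPM in CHT (median 26.6) (log2 fold change 3.59 ± 0.40, adjusted p = 3.3e-07). For these 8 genes every CHT library stood above every Ctrl library. TOP2A and ANLN were chosen after their values were seen, and MKI67 was not analysed here.

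Other members of the same lists had smaller fold changes and calls that depended on the libraries used. MCM2, another helicase subunit, rose by 0.95 ± 0.23 (adjusted p = 0.00479), but missed the threshold with plate 1 alone (adjusted p = 0.101) and with only the 2 groups compared. PCNA, the sliding clamp of DNA polymerases, measured 4.95 to 28.3 CPM in Ctrl (median 13.9) and 16.1 to 44.4 CPM in CHT (median 34.9) (log2 fold change 1.10 ± 0.35, adjusted p = 0.0341). It missed the threshold without Ctrl L150, L198, L166 or L261 or CHT L169, L186, L228 or L265 (adjusted p = 0.0504 to 0.0866). PCNA also missed it with plate as a term (adjusted p = 0.0856), with plate 1 alone (adjusted p = 0.105), with only the 2 groups compared and without the 4 libraries at the low end of the first component.

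The DEGs with the smallest p-values included genes outside the lists. ANO4, a member of the anoctamin family of membrane proteins, measured 0.393 to 1.71 CPM in Ctrl (median 0.898) and 39.8 to 193.8 CPM in CHT (median 87) (log2 fold change 6.80 ± 0.39, adjusted p = 4.61e-12). NYAP2, an adaptor of phosphoinositide 3-kinase described in neurons, measured 0.151 to 0.6252 CPM in Ctrl (median 0.288) and 43.4 to 169.2 CPM in CHT (median 90.5) (log2 fold change 8.196 ± 0.48, adjusted p = 4.61e-12). TRPM1, a cation channel known from retina and melanocytes, measured 0.0561 to 0.608 CPM in Ctrl (median 0.236) and 9.8 to 102 CPM in CHT (median 44.6) (log2 fold change 7.29 ± 0.55, adjusted p = 6.38e-10). None had a Ctrl library above 1.71 CPM or a CHT library under 9.8 CPM. RGS1, a brake on chemokine receptor signals in leukocytes, measured 0 to 0.504 CPM in Ctrl (median 0.225) and 10.5 to 24 CPM in CHT (median 15.2) (log2 fold change 6.15 ± 0.49, adjusted p = 1.77e-09). MLANA, a melanosome protein listed here among Schwann and nerve markers, measured 0.73 to 2.27 CPM in Ctrl (median 1.2) and 7.36 to 31.5 CPM in CHT (median 14.1) (log2 fold change 3.56 ± 0.59, adjusted p = 9.35e-05), with no overlap. Of the 12 tested Schwann and nerve markers 1 rose and 1 fell (1 and 0 with plate 1 alone, and 1 and 3 with DESeq2), or 16.7% called against 11.9% of all genes, MLANA being the one that rose in the full comparison. TRPM1 and RGS1 were chosen after their values were seen.

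Among genes that fell, PRKG1, the cyclic GMP dependent kinase of smooth muscle and fibroblasts, ranked beside the sterol genes. It measured 159.1 to 380.4 CPM in Ctrl (median 212) and 83.8 to 134 CPM in CHT (median 121), without overlap (log2 fold change -0.97 ± 0.17, adjusted p = 0.000126). Ctrl L150 held the highest PRKG1 level, 380 CPM, and CHT L265 the lowest, 83.8 CPM. With plate 1 alone the log2 fold change was -1.27 ± 0.21 (adjusted p = 0.00189).

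Markers of the resident cells of the valve gave 0 endothelial and 3 interstitial DEGs. Of 23 tested endothelial genes 0 were DEGs by edgeR, or 0% against 11.9% of all genes. In this list 1 had an unadjusted p under 0.05 by edgeR and DESeq2 called 1 lower. With plate 1 alone 0 were called by edgeR and 0 had an unadjusted p under 0.05. The median was 0.094, and the summed level was 330 to 1520 CPM in Ctrl and 489 to 1240 CPM in CHT. PECAM1, an adhesion molecule of endothelial junctions, measured 20.2 to 282 CPM in Ctrl (median 192.6) and 53 to 332 CPM in CHT (median 228.7) (log2 fold change 0.26 ± 0.72, adjusted p = 0.821), CDH5, the junctional cadherin, 6.85 to 63.8 CPM in Ctrl (median 41.2) and 13.8 to 61.1 CPM in CHT (median 53.8) (log2 fold change 0.25 ± 0.64, adjusted p = 0.811), and VWF, von Willebrand factor, 17.3 to 227 CPM in Ctrl (median 86.7) and 32 to 136 CPM in CHT (median 60.1) (log2 fold change -0.77 ± 0.57, adjusted p = 0.347). Each spread more than 4-fold within each group, and the groups overlapped. The lists of valve interstitial and fibroblast markers held 1 higher and 2 lower DEGs of 19, or 15.8% against 11.9% of all genes tested, at a median of -0.35 (1 and 1 with plate 1 alone). VIM, the intermediate filament of mesenchymal cells, measured 6288 to 10305 CPM in Ctrl (median 7046) and 6611 to 10308 CPM in CHT (median 7787) (log2 fold change 0.093 ± 0.13, adjusted p = 0.631), and DCN, the proteoglycan decorin, 366 to 2598 CPM in Ctrl (median 1988) and 667 to 1803 CPM in CHT (median 1396) (log2 fold change -0.35 ± 0.41, adjusted p = 0.56). Both were present in every library, and neither was a DEG.

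The interstitial DEGs were S100A4, SCARA5 and CD34. S100A4, a calcium-binding protein of fibroblasts and also of leukocytes, measured 36.2 to 77.1 CPM in Ctrl (median 39.4) and 80.8 to 232.8 CPM in CHT (median 146) (log2 fold change 1.55 ± 0.23, adjusted p = 1.65e-05). SCARA5, a ferritin receptor of fibroblasts, measured 437 to 895 CPM in Ctrl (median 651) and 217 to 484 CPM in CHT (median 277.3) (log2 fold change -1.10 ± 0.25, adjusted p = 0.00281), with CHT L244 the highest CHT library at 484 CPM. CD34, a surface protein of progenitor and stromal cells, measured 186.1 to 248.5 CPM in Ctrl (median 213) and 73.6 to 156.4 CPM in CHT (median 118), without overlap (log2 fold change -0.84 ± 0.25, adjusted p = 0.0243). CD34 missed the threshold without CHT L169, L186 or L265 or Ctrl L261 (adjusted p = 0.052 to 0.0633). CD34 also missed it with plate as a term (adjusted p = 0.164), with plate 1 alone (adjusted p = 0.0997) and without the 4 libraries at the low end of the first component. SCARA5 missed the threshold without the 4 libraries at the low end of the first component (adjusted p = 0.102).

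Of 19 tested transcription factors of valve development 1 rose and 3 fell, or 21.1% called against 11.9% of all genes, and 1 and 0 with plate 1 alone. DESeq2 called 6 lower, as did edgeR without Ctrl L240 and L277, and 1 was lower without the 4 libraries at the low end of the first component. TBX20, a T-box factor of the endocardial cushions, measured 350.4 to 526 CPM in Ctrl (median 406) and 142 to 292 CPM in CHT (median 209), without overlap (log2 fold change -0.96 ± 0.23, adjusted p = 0.00479). TBX20 missed the threshold with plate 1 alone (adjusted p = 0.0932) and without the 4 libraries at the low end of the first component. MEF2C, a factor of muscle, cushion and myeloid cells, measured 18.6 to 40.1 CPM in Ctrl (median 32.4) and 50 to 71.1 CPM in CHT (median 64) (log2 fold change 0.93 ± 0.17, adjusted p = 0.000343). TBX5, a T-box factor of the heart, measured 0.0786 to 3.5 CPM in Ctrl (median 2.31) and 0.105 to 0.796 CPM in CHT (median 0.446) (log2 fold change -2.16 ± 0.63, adjusted p = 0.0223) and missed the threshold without CHT L228 or Ctrl L261 (adjusted p = 0.0547 to 0.0548). TBX5 also missed it with plate as a term (adjusted p = 0.151) and with plate 1 alone (adjusted p = 0.335). NFATC1 and PDGFRA were not analysed here.

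Of 23 tested smooth muscle and myofibroblast genes 3 rose and 2 fell, or 21.7% called against 11.9% of all genes. The counts were 3 and 0 with plate 1 alone and 3 and 4 with DESeq2. The summed level was 3540 to 4930 CPM in Ctrl and 3800 to 4430 CPM in CHT. ACTA2, the smooth muscle actin of activated interstitial cells, measured 139 to 267.9 CPM in Ctrl (median 202) and 299 to 509 CPM in CHT (median 377), without overlap (log2 fold change 0.996 ± 0.21, adjusted p = 0.00123). ACTG2, the enteric smooth muscle actin, measured 1.81 to 7.81 CPM in Ctrl (median 4.38) and 8.85 to 26.5 CPM in CHT (median 14) (log2 fold change 1.78 ± 0.35, adjusted p = 0.000805). MYH11, the heavy chain of contractile smooth muscle, measured 133 to 522 CPM in Ctrl (median 196.6) and 114 to 555 CPM in CHT (median 412) and was not a DEG (log2 fold change 0.22 ± 0.61, adjusted p = 0.821). DES, the muscle filament desmin, fell, at 17.5 to 312 CPM in Ctrl (median 50.6) and 2.62 to 17.8 CPM in CHT (median 5.77) (log2 fold change -3.48 ± 0.68, adjusted p = 0.000704), with Ctrl L240 highest at 312 CPM and an adjusted p of 0.106 with plate 1 alone.

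Collagen, elastic fibre and proteoglycan genes were called in shares near or below that of all genes. Of 31 tested collagens and collagen-modifying enzymes 2 rose and 2 fell, or 12.9% against 11.9% of all genes, at a median of -0.10 (1 and 0 with plate 1 alone, and 1 and 4 with DESeq2). COL1A1 and COL3A1, the main fibrillar collagens, had log2 fold changes of -0.18 ± 0.62 (adjusted p = 0.858) and 0.21 ± 0.19 (adjusted p = 0.447). COL1A1 ranged from 933 to 7289 CPM in Ctrl and from 551.01 to 6949 CPM in CHT. CRTAP, a partner of collagen prolyl hydroxylation, rose by 0.82 ± 0.14, with 37.7 to 65.4 CPM in Ctrl and 81 to 134 CPM in CHT. Elastic fibre genes gave 0 higher and 1 lower of 17 (0 and 0 with plate 1 alone), and proteoglycan genes 3 and 0 of 30 (2 and 1). With all libraries these were 5.88% and 10% called, against 11.9% of all genes. VCAN, versican of the spongy layer, measured 4374 to 9104 CPM in Ctrl (median 6049) and 5363 to 13431 CPM in CHT (median 6741) (log2 fold change 0.24 ± 0.25, adjusted p = 0.509), with CHT L228 apart from the other CHT libraries. The proteoglycan DEGs included SRGN, serglycin of leukocyte granules, at 3.85 to 8.46 CPM in Ctrl (median 7.06) and 17 to 44.4 CPM in CHT (median 24.8) (log2 fold change 2.08 ± 0.24, adjusted p = 5.98e-07), and CD44, the hyaluronan receptor, at 123 to 239.6 CPM in Ctrl (median 213) and 409 to 659 CPM in CHT (median 527) (log2 fold change 1.41 ± 0.17, adjusted p = 8.63e-07).

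Among matricellular genes 5 of 27 rose and 2 fell, or 25.9% against 11.9% of all genes, 2 and 1 with plate 1 alone, and 3 and 2 without the 4 libraries at the low end of the first component. MATN1, a matrilin of cartilage, measured 20.8 to 47.7 CPM in Ctrl (median 34.5) and 139.6 to 283 CPM in CHT (median 202) (log2 fold change 2.55 ± 0.23, adjusted p = 8.32e-09), and CCN3, a matricellular regulator, 14.4 to 20.2 CPM in Ctrl (median 17.1) and 31.9 to 147 CPM in CHT (median 73.9) (log2 fold change 2.17 ± 0.27, adjusted p = 1.26e-06). Both were without overlap. FN1, fibronectin, measured 3483 to 10127 CPM in Ctrl (median 7179) and 9892 to 15869 CPM in CHT (median 13027) (log2 fold change 0.86 ± 0.22, adjusted p = 0.00887), but missed the threshold with plate as a term (adjusted p = 0.0517), with plate 1 alone (adjusted p = 0.152) and without the 4 libraries at the low end of the first component. TNN, tenascin-W, rose by 3.44 ± 0.71 with a range of 2.72 to 56.9 CPM on CHT, and had an adjusted p of 0.127 with plate 1 alone. TNC, tenascin-C, measured 97 to 271.3 CPM in Ctrl (median 170.5) and 191.99 to 356 CPM in CHT (median 334) (log2 fold change 0.82 ± 0.26, adjusted p = 0.0388) and missed the threshold without Ctrl L150, L166, L240 or L261 or CHT L169, L186, L228 or L244 (adjusted p = 0.0605 to 0.0884). TNC also missed it with plate as a term (adjusted p = 0.114), with plate 1 alone (adjusted p = 0.251), with only the 2 groups compared, with no filter on low counts, without Ctrl L240 and L277 and without the 4 libraries at the low end of the first component.

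Matrix proteases and their inhibitors gave 8 higher and 3 lower DEGs of 38, or 28.9% against 11.9% of all genes, MMP12 first among them. The counts were 4 and 1 with plate 1 alone, 9 and 6 with DESeq2 and 7 and 6 without Ctrl L240 and L277. ADAMTS14, a procollagen peptidase, measured 9.81 to 19 CPM in Ctrl (median 12.4) and 58.4 to 104 CPM in CHT (median 61) (log2 fold change 2.53 ± 0.22, adjusted p = 6.74e-09), and ADAM17, the sheddase of TNF, 43.8 to 58.6 CPM in Ctrl (median 52) and 77 to 135 CPM in CHT (median 112) (log2 fold change 1.04 ± 0.15, adjusted p = 1.47e-05). Neither overlapped. MMP9, a gelatinase of leukocytes, was low, at 0.0504 to 1.1 CPM in Ctrl (median 0.225) and 0.838 to 5.3 CPM in CHT (median 2.45) (log2 fold change 2.78 ± 0.72, adjusted p = 0.00996; adjusted p = 0.186 with plate 1 alone), while MMP2, the gelatinase of fibroblasts, was not a DEG, at 717 to 1287 CPM in Ctrl (median 895) and 741 to 1233 CPM in CHT (median 1121) (log2 fold change 0.22 ± 0.17, adjusted p = 0.379). TIMP1, an inhibitor of these proteases, rose by 0.87 ± 0.20 (adjusted p = 0.00306) and missed the threshold with plate 1 alone (adjusted p = 0.137) and without the 4 libraries at the low end of the first component. Of 15 genes of plasminogen activation and coagulation 3 rose and 1 fell (2 and 0 with plate 1 alone), or 26.7% called against 11.9% of all genes. PLAU, urokinase, measured 7.62 to 21.8 CPM in Ctrl (median 13) and 51.2 to 134 CPM in CHT (median 64.4) (log2 fold change 2.54 ± 0.26, adjusted p = 1.07e-07), without overlap.

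Osteogenic genes were mixed. Of 25 tested, 4 rose and 1 fell, at a median of 0.0074 (3 and 0 with plate 1 alone). The share called was 20%, against 11.9% of all genes, and those that rose included SPP1 and CTSK, which foam cells and other macrophages also make. RUNX2, the master transcription factor of osteoblasts, measured 0.076 to 1.24 CPM in Ctrl (median 0.265) and 0.39 to 2.84 CPM in CHT (median 1.24) and was not a DEG (log2 fold change 1.46 ± 0.55, adjusted p = 0.0768). It passed the threshold with DESeq2 (adjusted p = 0.0467) and without Ctrl L198 (adjusted p = 0.0327). ALPL, tissue non-specific alkaline phosphatase, measured 1.75 to 14.8 CPM in Ctrl (median 3.65) and 1.25 to 8.77 CPM in CHT (median 3.03) (log2 fold change -0.56 ± 0.58, adjusted p = 0.513), and BMP2, a bone morphogenetic protein, 2.51 to 9.09 CPM in Ctrl (median 4.74) and 1.95 to 6.03 CPM in CHT (median 4.4) (log2 fold change -0.34 ± 0.31, adjusted p = 0.447). The groups overlapped for all 3. FGF23, the phosphate-lowering hormone, measured 0 to 1.06 CPM in Ctrl (median 0.404) and 1.8 to 10.7 CPM in CHT (median 5.1), without overlap (log2 fold change 3.82 ± 0.79, adjusted p = 0.00121). SOST, the Wnt inhibitor sclerostin, fell, at 3.82 to 15.9 CPM in Ctrl (median 8.65) and 1.45 to 5.45 CPM in CHT (median 1.77) (log2 fold change -1.80 ± 0.50, adjusted p = 0.0159), and missed the threshold with plate as a term (adjusted p = 0.0898), with plate 1 alone (adjusted p = 0.178) and without the 4 libraries at the low end of the first component. SPARC, MGP and BGLAP, also on the list, were not DEGs.

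CHT rabbits had received vitamin D2 at the start of the protocol, and 4 genes of vitamin D metabolism and response could be tested. VDR, the vitamin D receptor, measured 1.51 to 6.05 CPM in Ctrl (median 3.19) and 0.524 to 3.38 CPM in CHT (median 2.19) and was not a DEG (log2 fold change -0.68 ± 0.47, adjusted p = 0.314), and CYP24A1, the inactivating hydroxylase, was too low to be tested. CYP27A1, a sterol and vitamin D hydroxylase, measured 39.9 to 86.4 CPM in Ctrl (median 53.5) and 22.2 to 56.2 CPM in CHT (median 36.9) (log2 fold change -0.71 ± 0.22, adjusted p = 0.0341) and missed the threshold without Ctrl L150, L166 or L261 or CHT L169, L186, L228 or L265 (adjusted p = 0.0551 to 0.0946). CYP27A1 also missed it with plate as a term (adjusted p = 0.163), with plate 1 alone (adjusted p = 0.175), with only the 2 groups compared, with no filter on low counts and without the 4 libraries at the low end of the first component. Of 17 cartilage genes 1 rose and 1 fell (1 and 0 with plate 1 alone), or 11.8%, close to the 11.9% of all genes, and 3 fell without Ctrl L240 and L277.

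Signalling lists were called in 15.9% of TGF-beta and BMP genes and 11.4% of Wnt genes, against 11.9% of all genes. TGF-beta and BMP genes gave 2 higher and 5 lower DEGs of 44, at a median of -0.17 (1 and 2 with plate 1 alone), and Wnt genes 1 and 4 of 44, at a median of -0.45 (0 and 1 with plate 1 alone). The lower DEGs varied with the method: DESeq2 called 11 and 10, and without the 4 libraries at the low end of the first component 1 and 0 were called by edgeR, where 9 genes of each list had an unadjusted p under 0.05. SMAD7, the inhibitory SMAD, measured 23.4 to 91.6 CPM in Ctrl (median 49.4) and 11 to 42.2 CPM in CHT (median 22) (log2 fold change -1.21 ± 0.36, adjusted p = 0.0249) and missed the threshold without Ctrl L150, L166 or L261 or CHT L169, L186 or L228 (adjusted p = 0.0643 to 0.0697). SMAD7 also missed it with plate as a term (adjusted p = 0.113), with plate 1 alone (adjusted p = 0.175), with only the 2 groups compared and without the 4 libraries at the low end of the first component. SMAD3, a signal carrier, measured 8.52 to 26.6 CPM in Ctrl (median 12.4) and 6.24 to 13.9 CPM in CHT (median 7.53) (log2 fold change -0.82 ± 0.25, adjusted p = 0.0279) and missed the threshold without Ctrl L150, L166 or L261 or CHT L169, L186, L228 or L265 (adjusted p = 0.0641 to 0.0901). SMAD3 also missed it with plate as a term (adjusted p = 0.112), with plate 1 alone (adjusted p = 0.11), with only the 2 groups compared, with no filter on low counts and without the 4 libraries at the low end of the first component. SFRP2, a secreted frizzled-related protein, rose widely, at 4.03 to 10.2 CPM in Ctrl (median 5.83) and 6.6 to 79.9 CPM in CHT (median 42) (log2 fold change 2.55 ± 0.44, adjusted p = 0.000142, and adjusted p = 0.0552 with plate 1 alone). WNT5A, a non-canonical ligand, measured 5.97 to 11.1 CPM in Ctrl (median 9.57) and 2.67 to 8.09 CPM in CHT (median 5.37) and was not a DEG (log2 fold change -0.67 ± 0.25, adjusted p = 0.0678). It passed the threshold with DESeq2 (adjusted p = 0.0198) and without CHT L244 (adjusted p = 0.0331).

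Iron and heme handling rose in 7 of 17 tested genes and fell in 0, or 41.2% called against 11.9% of all genes, and 3 and 0 with plate 1 alone. HMOX1, heme oxygenase, measured 4.83 to 11.2 CPM in Ctrl (median 8.21) and 14.1 to 34.1 CPM in CHT (median 28.8) (log2 fold change 1.61 ± 0.26, adjusted p = 7.13e-05). SLC11A2, the iron transporter of endosomes, measured 7.78 to 15.1 CPM in Ctrl (median 10.2) and 24.6 to 56.7 CPM in CHT (median 28.9) (log2 fold change 1.67 ± 0.20, adjusted p = 9.89e-07), and ACO1, which doubles as an iron sensor, 31.9 to 52.5 CPM in Ctrl (median 40.7) and 69.4 to 109.8 CPM in CHT (median 77.6) (log2 fold change 1.046 ± 0.15, adjusted p = 8.87e-06). None of the 3 overlapped. TFRC, the transferrin receptor, rose by 1.296 ± 0.33 (adjusted p = 0.00789) and missed the threshold with plate as a term (adjusted p = 0.0614) and with plate 1 alone (adjusted p = 0.0807). Of 23 genes of glutathione and oxidant defence 6 rose and 0 fell, or 26.1% called. Without the 4 libraries at the low end of the first component 1 rose, and 0 were called by edgeR with plate 1 alone, where 4 had an unadjusted p under 0.05. CAT, catalase, measured 51.9 to 105 CPM in Ctrl (median 75.5) and 89.3 to 170.5 CPM in CHT (median 143) (log2 fold change 0.93 ± 0.18, adjusted p = 0.000633; adjusted p = 0.0841 with plate 1 alone). ATF3, a stress-induced transcription factor, measured 9.35 to 55.7 CPM in Ctrl (median 17) and 73.4 to 240.8 CPM in CHT (median 94.3), without overlap (log2 fold change 2.34 ± 0.34, adjusted p = 1.19e-05), and was one of the 2 higher DEGs among 19 genes of unfolded protein stress (1 with plate 1 alone), of which 10.5% were called, against 11.9% of all genes.

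Of 28 respiratory chain genes 1 rose and 0 fell (0 and 0 by edgeR with plate 1 alone, where 8 had an unadjusted p under 0.05), though 10 rose without Ctrl L240 and L277. The full comparison called 3.57% of them, against 11.9% of all genes. Of 28 fatty acid genes 4 rose and 1 fell, 1 and 0 with plate 1 alone, or 17.9% called against 11.9% of all genes in the full comparison. Among them was UCP3, a mitochondrial carrier, at 0.314 to 1.15 CPM in Ctrl (median 0.849) and 1.25 to 6.6 CPM in CHT (median 2.9) (log2 fold change 2.15 ± 0.44, adjusted p = 0.00116; adjusted p = 0.0572 with plate 1 alone). Glycolysis genes gave 5 higher and 4 lower of 26, or 34.6% against 11.9% of all genes, 1 and 1 with plate 1 alone, and 2 and 3 without Ctrl L240 and L277. HIF1A, the oxygen-sensitive transcription factor, measured 92 to 303 CPM in Ctrl (median 219) and 219 to 584 CPM in CHT (median 429.7) (log2 fold change 1.20 ± 0.26, adjusted p = 0.00228). The muscle isoforms fell: PGAM2 measured 1.86 to 34 CPM in Ctrl (median 3.46) and 0.0557 to 1.02 CPM in CHT (median 0.518) (log2 fold change -4.03 ± 0.72, adjusted p = 0.000241) and PFKM 60.1 to 108 CPM in Ctrl (median 70.3) and 37.9 to 52.3 CPM in CHT (median 44.2) (log2 fold change -0.74 ± 0.15, adjusted p = 0.000867; adjusted p = 0.0566 with plate 1 alone). With plate as a term PFKM was not called, since its fold change fell under 1.5 (adjusted p = 0.0133). Genes of prostaglandins, leukotrienes and phospholipases gave 5 higher and 0 lower of 19 (4 and 0 with plate 1 alone), or 26.3% against 11.9% of all genes. ALOX5AP, which leukotriene synthesis needs, measured 2.94 to 8.97 CPM in Ctrl (median 6.84) and 9.5 to 18.1 CPM in CHT (median 14.4) (log2 fold change 1.21 ± 0.35, adjusted p = 0.0219) and missed the threshold without CHT L186 (adjusted p = 0.0532). ALOX5AP also missed it with plate 1 alone (adjusted p = 0.125) and without the 4 libraries at the low end of the first component. Sphingolipid enzymes gave 3 higher and 2 lower of 24 (0 and 1 with plate 1 alone, and 6 and 3 without Ctrl L240 and L277), and ion channels 2 and 2 of 38 (2 and 0). These were shares of 20.8% and 10.5%, against 11.9% of all genes. Adipocyte markers gave 1 and 1 of 6, and markers of red blood cells and platelets 1 and 1 of 8, with 0 called by edgeR in either list with plate 1 alone, where 4 and 2 had an unadjusted p under 0.05. Their shares in the full comparison were 33.3% and 25%, against 11.9% of all genes.

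With all libraries, most heart muscle genes fell on CHT. Of 22 tested, 16 fell and 0 rose (9 and 0 with plate as a term), at a median of -3.96. In the full comparison 72.7% were called, against 11.9% of all genes. CKM, muscle creatine kinase, measured 6.52 to 174.02 CPM in Ctrl (median 19.7) and 0.223 to 2.77 CPM in CHT (median 1.55), without overlap (log2 fold change -4.98 ± 0.86, adjusted p = 0.000142). TNNC1, cardiac troponin C, measured 11 to 296 CPM in Ctrl (median 39.7) and 0.524 to 6.53 CPM in CHT (median 2.83) (log2 fold change -4.68 ± 0.84, adjusted p = 0.000249), MB, myoglobin, 3.54 to 205 CPM in Ctrl (median 12) and 0.111 to 3.03 CPM in CHT (median 0.875) (log2 fold change -5.29 ± 0.96, adjusted p = 0.000272), and ACTC1, cardiac actin, 7.9 to 411 CPM in Ctrl (median 29.8) and 0.262 to 6.32 CPM in CHT (median 2.2) (log2 fold change -5.06 ± 1.12, adjusted p = 0.00243). In all 4 genes Ctrl L240 held the highest value. MYH7, the slow cardiac myosin heavy chain and chosen after its values were seen, measured 116 to 10351 CPM in Ctrl (median 633) and 5.03 to 301 CPM in CHT (median 38.5), with overlap (log2 fold change -4.70 ± 1.20, adjusted p = 0.00868). The summed level of the 22 genes ranged from 596 to 14800 CPM in Ctrl (median 1290), from 281 to 689 CPM in CHT (median 363) and from 321 to 598 CPM in Lard (median 444).

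The size of the muscle difference depended on the Ctrl libraries used. Among Ctrl the 3 plate 1 libraries summed to 596 to 1290 CPM and the 4 plate 2 libraries to 669 to 14800 CPM. With plate 1 alone 2 of the list fell, with a median of -2.10, and without Ctrl L240 and L277 11 fell, with a median of -2.25. CKM kept its call with plate 1 alone, at -3.35 ± 0.81 (adjusted p = 0.0235), as did TNNC1, at -3.02 ± 0.74 (adjusted p = 0.0253). MB, ACTC1 and MYH7 did not (adjusted p = 0.0594, 0.177 and 0.305). MYH7 also missed the threshold with plate as a term (adjusted p = 0.158) and without Ctrl L240 and L277 (adjusted p = 0.0785). Against Lard, CKM on CHT differed by -0.89 ± 0.75 (adjusted p = 0.633) and TNNC1 by -0.85 ± 0.73 (adjusted p = 0.648). The part that adjoining muscle taken with the leaflet may have in these values was not tested. Without Ctrl L240 and L277 the whole comparison gave 2962 DEGs, 1632 higher and 1330 lower.

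**Figure D3:**
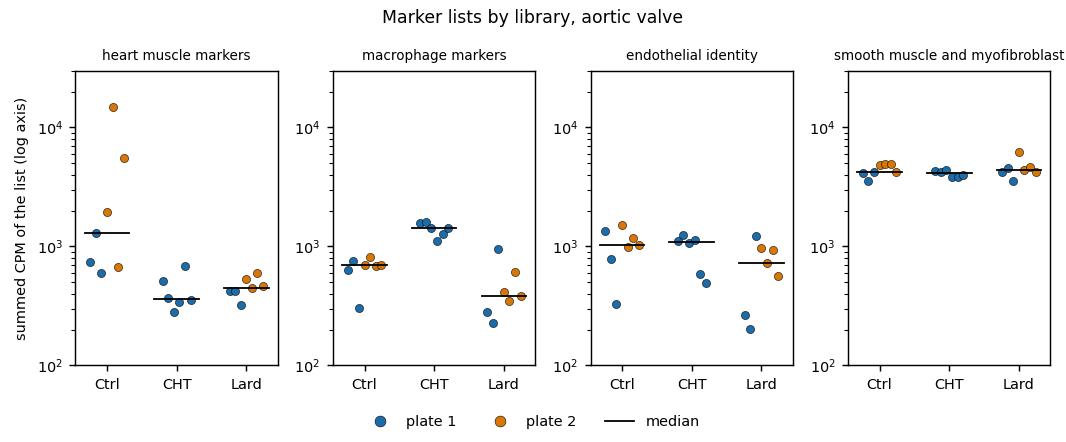
Summed CPM of 4 marker lists in each aortic valve library of Ctrl, CHT and Lard on a log axis, with a point per library coloured by plate and a line at the median. The macrophage sum of every CHT library (1110 to 1610 CPM) lies above that of every Ctrl library (305 to 820 CPM), and the heart muscle sum is highest in Ctrl L240, at 14800 CPM.

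**Figure D4:**
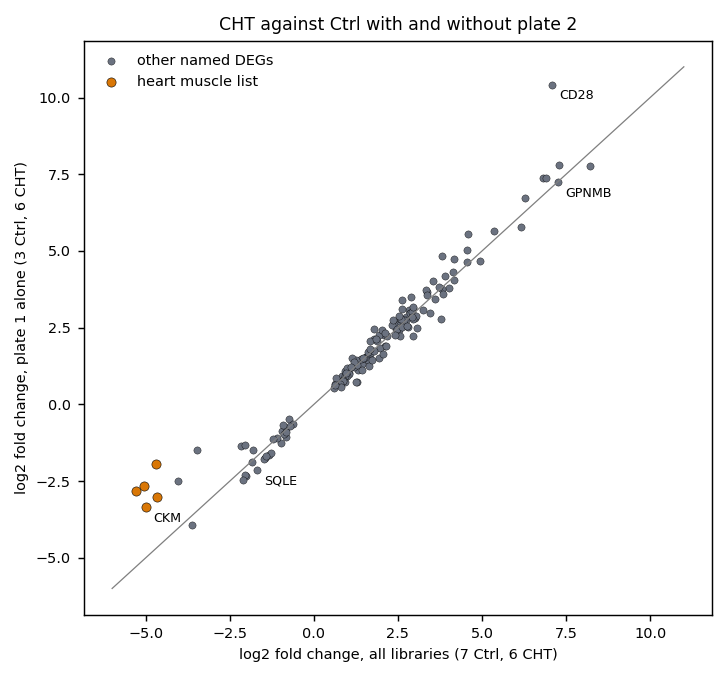
Log2 fold change of named DEGs with all 13 libraries on the horizontal axis and with the plate 1 libraries alone (3 Ctrl, 6 CHT) on the vertical axis, where the line marks equal values, orange points are the heart muscle genes and MMP12 is left out. GPNMB lies at 7.26 and 7.24 ± 0.71, SQLE at -1.70 and -2.13 ± 0.29, and CKM moves from -4.98 to -3.35 ± 0.81.

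Lard rabbits received the same vitamin D2 as CHT rabbits, so CHT and Lard were also compared directly. Lard L152, L173 and L232 were on plate 1 and L190, L248, L269 and L543 on plate 2. All 6 CHT libraries were on plate 1, so plate and treatment are confounded in part here too. Values of single genes against Lard are from the fit of all libraries without plate as a term. This comparison shares the CHT libraries with the one above and is given side by side. Of 15408 genes, 1224 differed (7.94%), 1103 higher and 121 lower on CHT. With plate as a term 999 differed, and with plate 1 alone 609. GPNMB was 7.35 to 19.1 CPM on Lard and differed from CHT by 6.62 ± 0.41 on the log2 scale (adjusted p = 3.73e-11). SPP1, at 51 to 355 CPM on Lard, differed by 2.80 ± 0.41 (adjusted p = 1.55e-05), and CD68, at 14.1 to 27.5 CPM, by 3.30 ± 0.24 (adjusted p = 3.84e-10). RRM2, at 0.188 to 2.73 CPM, differed by 3.60 ± 0.43 (adjusted p = 7.66e-07). For all 4 the Lard libraries stayed below the lowest CHT library. SQLE was lower on CHT than on Lard, at a log2 difference of -1.84 ± 0.28 (adjusted p = 3.31e-05). LPL, which did not pass against Ctrl, passed against Lard, where it measured 2.6 to 17.9 CPM (3.12 ± 0.60, adjusted p = 0.000565). CXCR4, FN1, TIMP1, SREBF2, TBX20 and SOST, DEGs against Ctrl, did not pass against Lard, with adjusted p-values of 0.598, 0.567, 0.324, 0.232, 0.169 and 0.612. The difference between the 2 contrasts was not tested.

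The mitral valve, the other valve of the left heart, gave the closest comparison, with 6 Ctrl and 6 CHT libraries from 12 rabbits that also gave an aortic valve library. In 1 model of both valves and all treatments, the CHT response differed in 0 of 16166 genes (0%) by edgeR (adjusted p under 0.05). There 1816 genes had an unadjusted p under 0.05 and the smallest adjusted p was 0.0906. DESeq2 called 75, of which 16 had a positive and 59 a negative log2 difference, aortic minus mitral. By edgeR with plate 1 alone 0 of 16436 genes were called, with 756 at an unadjusted p under 0.05 and a smallest adjusted p of 0.818. With only the Ctrl and CHT libraries 0 of 15204 were called. Here 1232 had an unadjusted p under 0.05 and the smallest adjusted p was 0.21. With the rabbit as a block, over the 24 libraries of these 12 rabbits, 5 of 15122 genes differed, 4 with a larger and 1 with a smaller response in the aortic valve. RRM2 ranged from 0.245 to 1.08 CPM in Ctrl aortic valves and from 1.33 to 3.87 CPM in the mitral valves of the same rabbits, and from 8.04 to 17.4 and 4.68 to 15.2 CPM on CHT. Its response was larger in the aortic valve, with a log2 difference of 2.53 ± 0.27 (SE, adjusted p = 0.00331). ANLN and TOP2A, also genes of dividing cells, had log2 differences of 1.93 ± 0.27 (SE, adjusted p = 0.0265) and 1.86 ± 0.29 (SE, adjusted p = 0.0378). In these 3 genes all 6 Ctrl rabbits had more transcript in the mitral than in the aortic valve, whereas on CHT 5 of 6 had less.

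MYH11 went the other way. Ctrl aortic valves held 136 to 540.4 CPM and Ctrl mitral valves 24.1 to 56.2 CPM, while on CHT the ranges were 115 to 543.5 and 141 to 836 CPM. The response was smaller in the aortic valve, with a log2 difference of -2.85 ± 0.38 (SE, adjusted p = 0.0172), and in the mitral valve alone the log2 fold change was 3.32 ± 0.49 (adjusted p = 4.13e-05). In the model of all treatments without the block, the same difference had an adjusted p of 0.121 for MYH11 and 0.136 for RRM2. Block and library set changed together between these fits. The lipid genes named above did not pass in either fit: GPNMB differed by 1.497 ± 0.38 (SE, adjusted p = 0.119) and ABCA1 by 0.21 ± 0.24 (SE, adjusted p = 0.631) with the block. FGF23 rose in the aortic valve and measured 0.0634 to 14.1 CPM in Ctrl and 1.62 to 5.17 CPM in CHT mitral valves, and its difference of 3.78 ± 1.26 (SE, adjusted p = 0.143) did not pass.

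**Figure D5:**
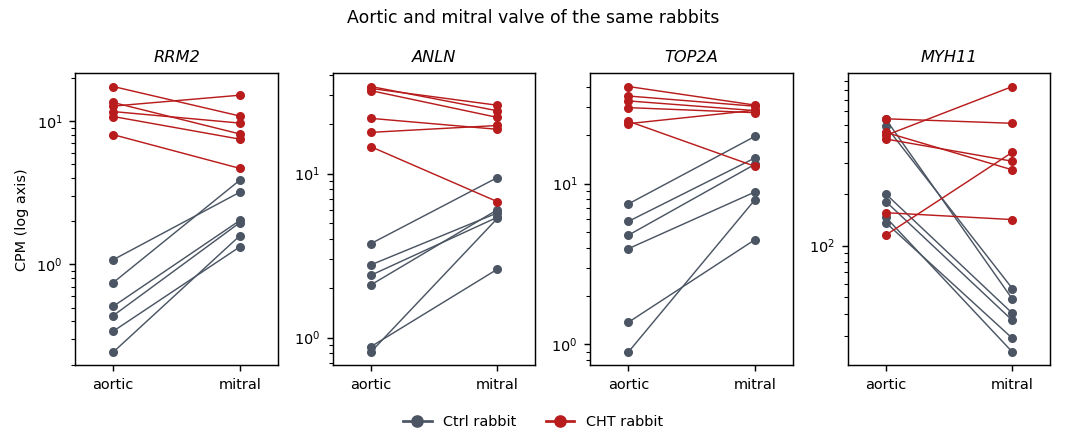
CPM of RRM2, ANLN, TOP2A and MYH11 in the aortic and mitral valve of the same 12 rabbits on a log axis, with a line for each rabbit, grey for Ctrl and red for CHT. For RRM2, ANLN and TOP2A every Ctrl line rises from the aortic to the mitral valve, and for MYH11 every Ctrl line falls while 2 of the 6 CHT lines rise.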

How the data were processed

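Per the study's methods and the labels, RNA of whole dissected valves was made into stranded total RNA libraries with a low-input kit, sequenced, and counted per gene with the nf-core/rnaseq pipeline on the OryCun2.0 rabbit genome with Ensembl annotation. Base calling used bcl2fastq 2.20, from the submitters' processing notes. The authors deposited a table of raw counts per gene for each of the 2 plates, with the same 29587 genes, of which 14716 carry a symbol, and the counts were used as deposited. Members and gene lists were chosen with earlier results of these data known.

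Low genes were removed with filterByExpr and libraries scaled by TMM. One edgeR 4.0.16 quasi-likelihood model (R 4.3.3, limma 3.58.1, 23 residual degrees of freedom) of all 27 aortic valve libraries gave CHT against Ctrl and CHT against Lard, and a model of both valves gave the difference in response. Adjusted p-values are Benjamini-Hochberg over all genes tested. A DEG needed an adjusted p under 0.05 and a fold over 1.5, and for the valve difference the adjusted p alone. The script was tested on simulated data. It recovered 44% of genes with a true log2 fold change of 1 and 30% with -1. At 2 and -2 it recovered 70% and 83.3%. There 14946 of 15144 genes were left unchanged, so these shares need not hold for the data.

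Totals ranged from 13978094 to 39026994 counts per library over Ctrl and CHT, and a level under 3 counts in a library was treated as the floor, which covers counting error only. Named genes were the 5 higher and 5 lower DEGs with the smallest p, up to 3 DEGs with the smallest p of each of 46 lists, and key members of each list whatever their result. Alternatives were DESeq2 size factors, DESeq2 1.42.0, no filter, only the groups compared, plate as a term, plate 1 alone and each library left out in turn. After seeing the data, fits without the 2 Ctrl libraries richest in heart muscle transcripts and without the 4 libraries at the low end of the first principal component were added. Valves were paired by rabbit, from the animal number that begins each library's column name. Key genes not found by symbol were not analysed here. Some genes that the rule names are not reported here, though list counts include them.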

Additional observations from a re-analysis of the deposited data

Results flagged for a closer look

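A library stood apart from the rest of its group, by Dixon's criterion at 95%, in 28 of the 324 groups of values examined. For independent, normally distributed values chance alone flags about 1 in 20 groups. The CPM values were not log-transformed and the groups share libraries, so that rate need not hold here. Ctrl L240 was the highest Ctrl library for heart muscle and muscle-related genes, with MYH7 at 10400, ACTC1 at 411, DES at 312, TNNC1 at 296, MB at 205, CKM at 174.02 and PGAM2 at 34 CPM, and its summed heart muscle level was 14800 CPM. The same library was also highest for ATP6V0D2 at 1.14 CPM and for CD28 at 0.304 CPM.

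Ctrl L150 was highest for PRKG1 at 380 CPM, TNN at 6.84 CPM, CSF3R at 3.06 CPM and CD5 at 0.864 CPM, and lowest for CTSB at 269.03 CPM and CRTAP at 37.7 CPM. Ctrl L277 was highest for SELP at 22.7 CPM and STARD4 at 7.76 CPM, Ctrl L198 for CXCR4 at 38.3 CPM, and Ctrl L261 for OASL at 0.477 CPM. The summed macrophage level was lowest in Ctrl L198, at 305 CPM.

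On CHT, L151 was highest for C1QA at 85 CPM and JCHAIN at 13.2 CPM. CHT L265 was highest for MMP12 at 583 CPM and ALPL at 8.77 CPM and lowest for PRKG1 at 83.8 CPM. VCAN was highest in CHT L228 at 13400 CPM, and SCARA5 in CHT L244 at 484 CPM.

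The response to CHT differed between the aortic and the mitral valve of the same rabbits, by the interaction term of edgeR's quasi-likelihood test with the rabbit as a block, for 5 genes. The log2 differences, aortic minus mitral, were 2.53 for RRM2, 1.92 for ANLN, 1.86 for TOP2A, 1.97 for ENSOCUG00000005133 and -2.85 for MYH11. The model of both valves and all treatments had no block. There 0 of 16166 genes passed by edgeR, with 1816 at an unadjusted p under 0.05, and DESeq2 called 75. When the other treatments were dropped, edgeR called 0 of 15204 genes, with 1232 at an unadjusted p under 0.05 (smallest adjusted p 0.21). The block fit used 24 libraries from 12 rabbits, so its block and its library set cannot be told apart.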

How the results depend on the processing

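Of 122 named DEGs, 88 kept their call under every alternative run and 34 lost it under at least 1, with 0 changes of sign. Named genes include those with the smallest p in this comparison and genes chosen after their values were seen. Of all 1833 DEGs, 42.3% were also called with plate 1 alone and 59.4% with plate as a term. The share was 56.8% without the 4 libraries at the low end of the first principal component and 96.5% with DESeq2. Of 28 named genes that were not DEGs, 4 passed under at least 1 alternative and 8 changed sign. The number of DEGs, 1833, was 1154 with only the 2 groups compared, 1125 with plate as a term, 826 with plate 1 alone, 2962 without the 2 Ctrl libraries richest in heart muscle transcripts (L240 and L277) and 1178 without the 4 libraries at the low end of the first principal component. Leaving out 1 library gave 1320 (without CHT L169) to 2628 (without CHT L151). DESeq2 gave 2672, of which 1369 were higher and 1303 lower. CHT against Lard gave 609 with plate 1 alone. The valve difference, 0 genes in the model of all treatments, was 75 with DESeq2. It stayed at 0 by edgeR when the other treatments were dropped. It was 5 with the rabbit as a replicate block, a fit limited to 24 libraries of Ctrl and CHT rabbits. Block and library set therefore changed together from 0 to 5. No paired analysis was possible for CHT against Ctrl because these were different rabbits.

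Genes that changed sign were not DEGs. With plate 1 alone the log2 fold change was 0.33 for CD163, 0.15 for VWF and -0.050 for VIM. Without Ctrl L240 and L277 it was 0.13 for CD163 and -0.015 for COL3A1. Without the 4 libraries it was 1.10 for CSF3R, 0.34 for ICAM1, 0.46 for COL1A1 and 0.34 for ALPL, and with plate as a term 0.10 for COL1A1. Leaving out 1 library gave -0.29 to 0.075 for CD163 and -0.49 to 0.059 for COL1A1. The causes were not tested. Depth limits genes near the floor of 3 counts.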
